A study of Mus musculus with 10 samples.

Results

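The genes described here act in homologous recombination, in the Fanconi pathway of crosslink repair and in the DNA damage checkpoint. They were a list of 41 genes chosen by name. Of these, 39 had at least 1 probe set whose annotation gave exactly that gene symbol, out of 18193 genes with a named probe set on the array. Where several probe sets named a gene, the one with the highest average signal stood for it. To be tested, a gene had to exceed a log2 signal of 4.43, the table's overall median, on 5 or more of the 10 arrays; 38 of the 39 genes did, among 11472 genes in all. Bard1 did not pass and is given by its values alone. Xrcc2 and Rbbp8 had no named probe set and are not analysed here.

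Homologous recombination repairs DNA double-strand breaks by copying an intact sister chromatid, and it works mainly in S and G2 phase. Break ends are resected to single strands, BRCA2, BRCA1 and PALB2 prepare them for strand exchange, and the joint molecules that follow are dissolved or cut. The Fanconi proteins recognise crosslinks that block replication forks and hand them to recombination, while the kinases ATM and ATR report breaks and stalled forks to CHEK2 and CHEK1. In dividing cells many of these genes are transcribed most around S phase.

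The cells were primary lymphoma cells from lymph nodes of Emu-myc mice, in which Myc is expressed throughout the B-cell lineage. All groups shared the Suv39h1-/- genotype, that is, loss of a histone H3 methyltransferase, a retroviral Bcl2 with puromycin selection, and culture on irradiated NIH 3T3 fibroblasts. The untreated group held 5 arrays and the ADR group 5 arrays of cells given 0.05 µg/ml Adriamycin (doxorubicin, a DNA-damaging topoisomerase poison) for 5 days. The lymphomas lymphoma_5783, lymphoma_7890, lymphoma_9250, lymphoma_1032 and lymphoma_4936 gave 1 array of each group. The question put by the series is what ADR, which drives Bcl2-protected lymphomas with Suv39h1 into senescence, does in lymphomas without it. Lymphomas with Suv39h1 are not analysed here, the ages of the mice are not given in the labels, and the feeder cells are of mouse origin, so that the arrays would measure any RNA of theirs too. The labels do not say whether the 5 lymphomas came from separate mice, or whether more than 1 culture was made of each, so p-values measure the spread between these samples. Values below are log2 signals. A change is the log2 difference of ADR minus untreated within a lymphoma, and means of changes are given with the SD over 5 lymphomas.

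The arrays had median signals between 4.43 and 4.5, except the ADR array of lymphoma_1032 at 4.15. All 10 B-cell markers with a probe set were tested. On average 5 were higher and 5 lower with ADR. Their mean changes were -0.10, 0.35, 0.46, -0.37 and -0.36 in the order of lymphomas above. Their summed signal, as a log2 value, ranged from 13.08 to 14.24 in untreated and from 12.9 to 14.34 in ADR arrays. Cd79b, a chain of the B-cell receptor complex, had untreated signals of 11.75, 11.33, 11.40, 10.07 and 10.52. Ms4a1, another of these markers, had 10.98, 8.99, 9.88, 5.09 and 7.87, and Pax5 lay between 4.89 and 5.59. Suv39h1 had no named probe set, so the deletion was not checked. Of 21 macrophage markers 19 had a probe set and 14 were tested; all 14 were higher on average with ADR, with mean changes of 1.33, 0.25, -0.22, 1.12 and 0.29. Their summed signal, as a log2 value, ranged from 11.96 to 15.45 in untreated and from 12.32 to 16.13 in ADR arrays, and of the defining markers Cd163 was below the filter on all arrays. Of 24 fibroblast markers 22 had a probe set and 14 were tested, 11 of them higher, with mean changes of 0.69, -0.07, -0.13, 0.58 and 0.15. The summed fibroblast signal ranged from 10.76 to 13.12 in untreated and from 11.08 to 13.43 in ADR arrays, with Lum and Timp3 below the filter on all arrays. The difference between the 3' and 5' control probe sets of Gapdh and beta-actin had changes between -0.04 and 0.08. Of 11 T-cell markers 9 had a probe set and 6 were tested, 1 of them higher, with summed signals of 8.49 to 11.46 untreated and 8.92 to 10.93 with ADR and with Cd3g and Cd8b1 below the filter on all arrays. Of 11 neutrophil markers 10 had a probe set and 3 were tested, 2 of them higher, with summed signals of 7.82 to 12.94 untreated and 7.75 to 14.04 with ADR and with Mpo, Ngp, Camp and S100a9 below the filter on all arrays. The part of these other cells in the results below was not tested.

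After 5 days of ADR most of the recombination, Fanconi and checkpoint genes had lower signals in 4 of the 5 lymphomas, and lymphoma_4936, the fifth, had higher ones. Of the 38 tested genes 34 were lower in lymphoma_5783, 34 in lymphoma_7890, 31 in lymphoma_9250 and 35 in lymphoma_1032, where 46.3%, 51.5%, 52.9% and 65.6% of all genes tested were lower. In lymphoma_4936, 7 of the 38 were lower, against 43.6% of all genes, and 31 were higher, against 56.4%. The pattern of a lower signal in the first 4 and a higher one in lymphoma_4936 was seen in 23 of the 38 genes and in 9.87% of all genes. Counting the first 4 lymphomas alone, 25 of 38 genes were lower in each, where 14.7% of all genes were. The median change over the 38 genes was -0.34, -0.40, -0.30 and -0.54 in the first 4 lymphomas and 0.46 in lymphoma_4936. Over all genes the medians were 0.04, -0.01, -0.02, -0.17 and 0.06; the lowest of these, too, was in lymphoma_1032. Because whole cultures were measured, fewer cells that transcribe these genes and less RNA per cell cannot be told apart. The proliferation marker Mki67, which encodes Ki-67, had changes of -1.95, -0.99, -0.52, -1.15 and 0.34 in the same order, and its part in the result was not tested.

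**Figure D1:**
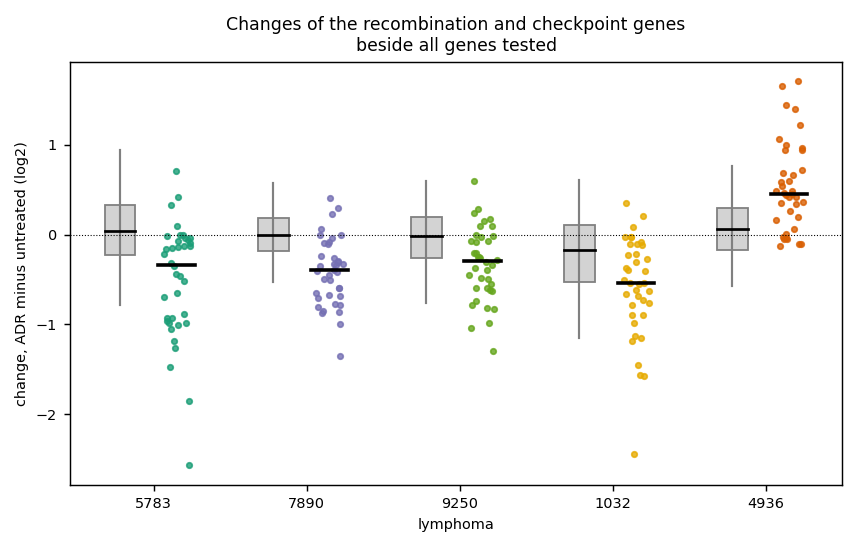
Changes of single genes (log2 difference of ADR minus untreated, vertical axis) in each of the 5 lymphomas (horizontal axis). Coloured points are the 38 tested recombination, Fanconi and checkpoint genes with their median as a bar; grey boxes show the quartiles, median and 5th to 95th percentile of all 11472 genes tested. The points lie mostly below the boxes' medians in lymphoma_5783, lymphoma_7890, lymphoma_9250 and lymphoma_1032 and above the median in lymphoma_4936, where their own median is 0.46.

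No gene passed the test on all 5 pairs. In the paired limma fit 0 of the 38 genes had an adjusted p under 0.05, as had 0 of all 11472 genes (0.0%), and the smallest adjusted p among the 38 was 0.565. At an unadjusted p under 0.05, 6 of 38 were lower, where 4.52% of all genes were, namely Brca2, Rad51c, Rad54b, Fanci, Eme1 and Mdc1. None of the 38 was higher at that p, where 3.97% of all genes were. In either direction 8.48% of all genes were past that p. The count of 6 was 1 without lymphoma_5783 (4.8% of all genes), 1 without lymphoma_9250 (6.88%), 1 without lymphoma_1032 (7.32%) and 3 without lymphoma_7890 (7.81%), and these counts were near or below the share over all genes. It was 21 without lymphoma_4936 (12.6%) and 0 without lymphoma_5783 and lymphoma_1032 together (4.35%). The mean change was below 0 for 32 of 38 genes (84.2%), where 55.2% of all genes had a mean below 0, and the median of the mean changes was -0.24 against -0.02 over all genes. With each array centred on its median, 26 of 38 (68.4%) were lower against 39.1% of all genes, and after another quantile normalization 28 (73.7%) against 49.3%. The median was -0.14 without lymphoma_5783, -0.15 without lymphoma_7890, -0.15 without lymphoma_1032 and -0.39 without lymphoma_4936. Without lymphoma_5783 and lymphoma_1032 together, a choice made after seeing the data, 23 of 38 genes (60.5%) were lower and the median was -0.04. Over all genes the share was 48.9% and the median 0.0. Of the lymphomas kept there, lymphoma_7890 and lymphoma_9250 had medians of -0.40 and -0.30 and lymphoma_4936 had 0.46. The lymphomas left out had the highest mean changes of macrophage and fibroblast markers, and the part of those cells was not tested. A mean change of -0.5 or less was seen in 8 of the 38 genes, where 3.24% of all genes had one. In at least 4 of the 5 lymphomas 29 of 38 genes were lower, where 26.0% of all genes were. Brca2 and Mdc1 were the 2 of the 38 genes lower in all 5 (5.26%), a share near the 4.82% of all genes. Higher in all 5 were 0 of the 38, where 4.67% of all genes were.

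**Figure D2:**
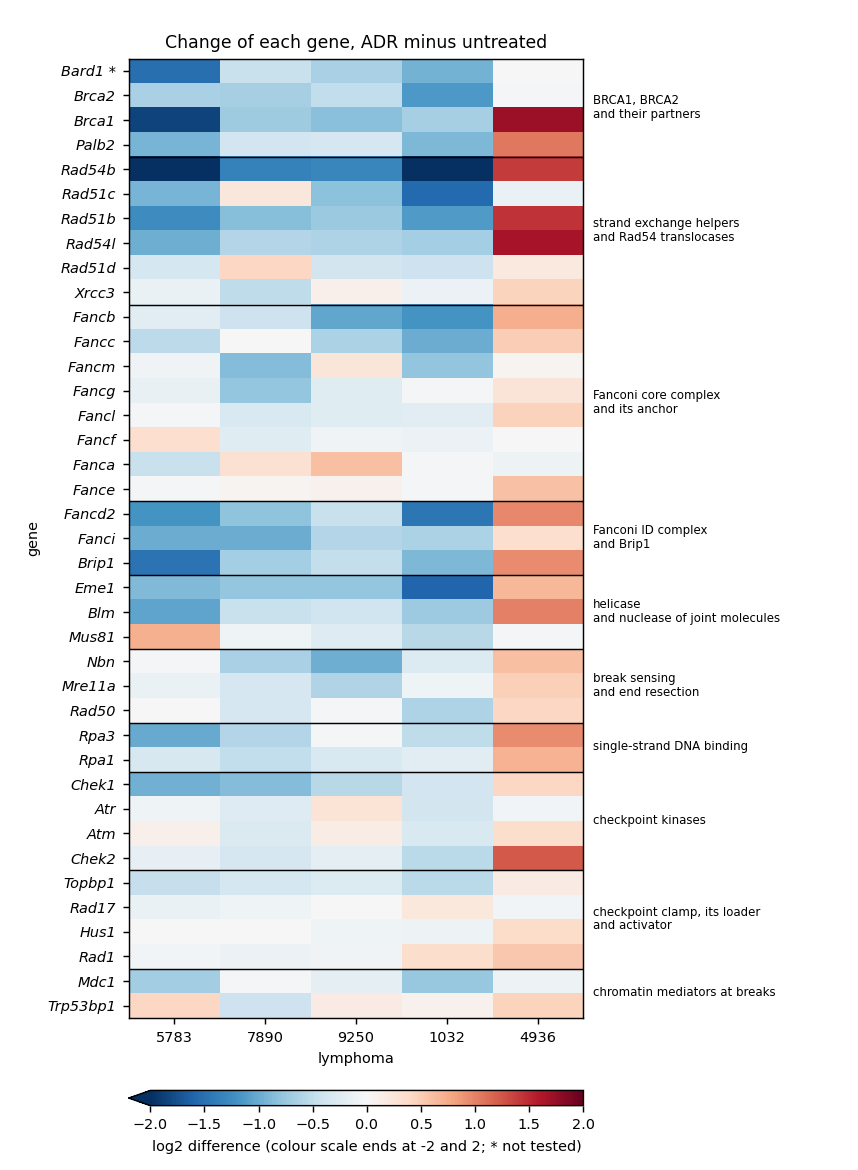
Change of each of the 39 genes with a probe set (rows, grouped by role) in each lymphoma (columns), as the log2 difference of ADR minus untreated; blue is lower and red is higher with ADR, and Bard1, marked with an asterisk, was not tested. The column of lymphoma_4936 is mostly red and the other columns mostly blue, with Rad54b lowest at -2.57 in lymphoma_5783.

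The tumour lymphoma_4936 differed from the others in its untreated array. For 24 of the 38 genes the untreated array of lymphoma_4936 was the lowest of the 5 untreated arrays, which held for 30.1% of all genes. Relative to a gene's mean over the 10 arrays, the median of the 38 genes was -0.47 on the untreated array of lymphoma_4936 and between 0.06 and 0.46 on the other untreated arrays. The same array was the lowest of all 10 for 11 of the 38 genes, against 16.3% of all genes. The ADR array of lymphoma_4936 was the highest of the 5 ADR arrays for 9 of the 38 (23.7%), near the 22.9% of all genes. The ADR array of lymphoma_1032 was the lowest for 21 (55.3%), against 43.3%. The ADR array of lymphoma_4936 had a median of 0.05, within the range of -0.54 to 0.20 of the other ADR arrays. Over all genes tested the untreated array of lymphoma_4936 had a median of -0.04. On that array the S phase list, the G2 and mitosis list and other genes of the same pathways, described below, had medians of -0.55, -0.50 and -0.38. Mki67 had untreated signals of 10.48, 10.84, 10.63, 10.29 and 9.54 and signals of 8.52, 9.85, 10.11, 9.15 and 9.88 with ADR. Its untreated value in lymphoma_4936 was the lowest of the 5. Cdkn1a, the p53 target that encodes the CDK inhibitor p21, was higher with ADR in every lymphoma, by 0.40, 1.36, 0.47, 0.28 and 0.49.

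With lymphoma_4936 left out, 21 of the 38 genes were lower at an unadjusted p under 0.05 in limma, where 8.31% of all genes were, and 0 were higher, where 4.3% were. The mean over these 4 lymphomas was below 0 for 34 of the 38, where it was for 57.8% of all genes. The adjusted p was still 0.153 or more for every gene, and 0 genes (0.0%) passed. In these 4 lymphomas the ADR and untreated signals of Brca1, Rad54b, Brip1, Fancd2, Fanci, Eme1 and Rpa1 did not overlap, 7 of 38 genes, where 2.97% of all genes were lower without overlap. With all 5 lymphomas the signals overlapped for each of the 38 genes, where 0.27% of all genes were lower without overlap. These counts without lymphoma_4936 are a description, since this lymphoma was singled out by its values.

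**Figure D3:**
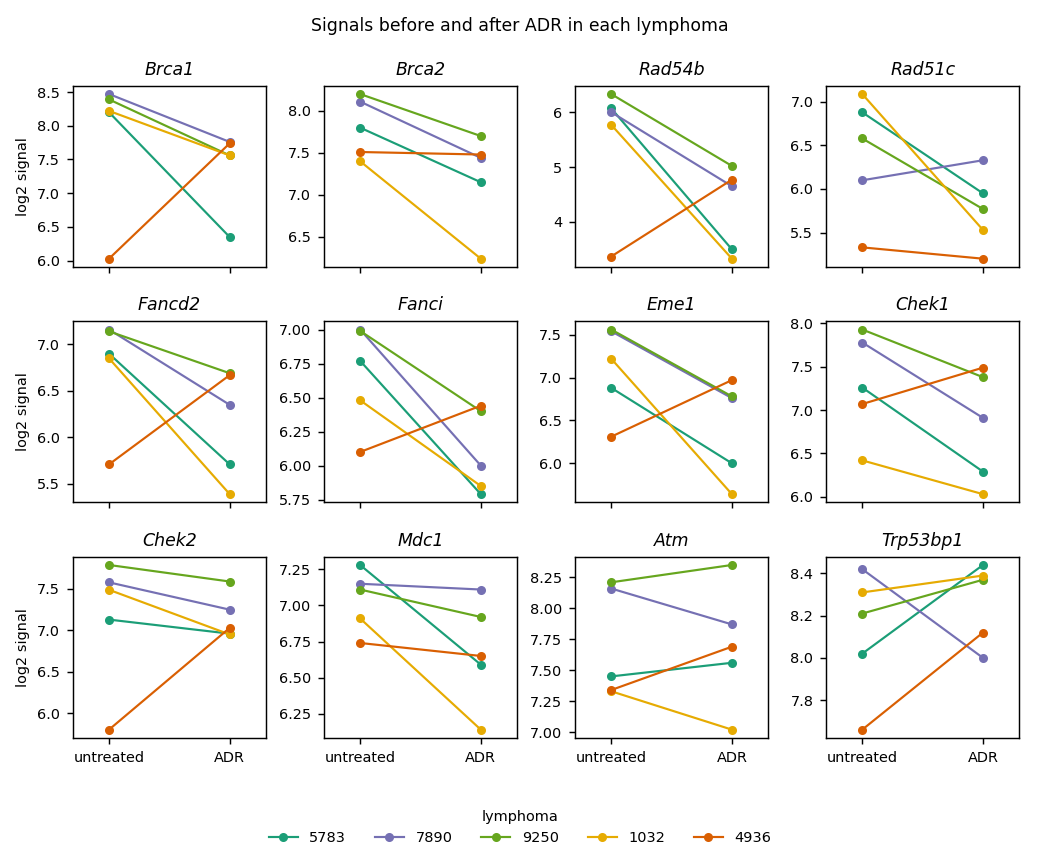
Log2 signals (vertical axes, scaled per gene) of 12 genes in untreated and ADR cells, with a line for each lymphoma. In Brca1, Rad54b, Fancd2, Fanci, Eme1, Chek1 and Chek2 the orange line of lymphoma_4936 runs upward while the other lines run downward. Brca2 and Mdc1 run downward in all 5, in Brca2 by as little as 0.03 in lymphoma_4936. Rad51c, Atm and Trp53bp1 have lines in both directions.

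The promoters of these genes were read as 300-base windows of RefSeq in the GRCm38.p6 build, from 250 bases before to 50 bases after the annotated start. Of the 39 genes with a probe set 34 had at least 1 window and 4 had more than 1, for 38 windows in all, some of them overlapping. Rad51d, Rad54b, Fancd2, Nbn and Rad50 had none. An E2F motif, here TTTCCCGC, TTTCGCGC, TTTGCCGC or TTTGGCGC on either strand, was found in 8 of 38 windows (21.1%), against 3.89% of the 11894 windows of genes tested and 2.26% of all 32851 windows. It lay in the windows of Bard1, Brca2, Chek2, Fancg, Mdc1, Rad51c and Topbp1. The letters CCAAT on either strand were in 55.3% of the windows and in 37.5% of those of genes tested, and a CHR motif, TTTGAA or TTCGAA on either strand, in 13.2% and 13.9%. None of the E2F matches overlapped a CCAAT or CHR match. The 6 tested genes with an E2F match had a median change of -0.33 and 5 of them were lower, and the 27 tested genes with a window and no match had a median of -0.13 with 22 lower. A match is only a match of letters.

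The windows below are shown for Brca2, Mdc1, Rad51c and Topbp1, which hold an E2F match and had lower mean signals. They are also shown for Brca1, which holds CCAAT and no E2F match, and for Rad17, which holds neither and had a mean change of -0.01 ± 0.13. Other windows are not shown. Fancg and Chek2 hold an E2F match and had mean changes of -0.19 ± 0.38 and 0.0 ± 0.70. Eme1 and Fanci hold none and had -0.67 ± 0.81 and -0.58 ± 0.54. Capitals mark the E2F and CCAAT letters, and each sequence is written on the strand of its gene. The window of Brca2 is chr5:150522371-150522670, plus strand, that of Mdc1 chr17:35841248-35841547, plus strand, that of Rad51c chr11:87404457-87404756, minus strand, that of Topbp1 chr9:103305077-103305376, plus strand, that of Brca1 chr11:101551906-101552205, minus strand, and that of Rad17 chr13:100651012-100651311, minus strand. The E2F match began 168 bases before the start in Brca2, 16 in Mdc1 and 129 in Topbp1, and lay after the start in Rad51c, whose other window held 1 as well.
Brca2: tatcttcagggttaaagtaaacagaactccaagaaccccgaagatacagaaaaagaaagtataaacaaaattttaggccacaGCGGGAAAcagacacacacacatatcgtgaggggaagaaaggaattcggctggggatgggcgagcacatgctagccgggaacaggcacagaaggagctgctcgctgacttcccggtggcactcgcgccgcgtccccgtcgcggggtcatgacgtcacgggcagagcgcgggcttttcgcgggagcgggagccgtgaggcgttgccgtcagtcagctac
Mdc1: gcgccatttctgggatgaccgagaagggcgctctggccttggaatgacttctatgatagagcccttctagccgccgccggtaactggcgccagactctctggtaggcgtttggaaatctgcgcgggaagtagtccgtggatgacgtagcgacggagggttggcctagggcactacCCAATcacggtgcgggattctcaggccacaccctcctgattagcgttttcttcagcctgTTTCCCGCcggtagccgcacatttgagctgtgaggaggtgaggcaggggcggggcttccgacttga
Rad51c: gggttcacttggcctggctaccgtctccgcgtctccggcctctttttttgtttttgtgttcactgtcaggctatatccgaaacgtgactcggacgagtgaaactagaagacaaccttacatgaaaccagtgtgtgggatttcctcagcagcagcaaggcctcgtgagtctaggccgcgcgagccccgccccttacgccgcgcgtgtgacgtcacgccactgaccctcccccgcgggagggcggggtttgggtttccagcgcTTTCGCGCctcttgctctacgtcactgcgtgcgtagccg
Topbp1: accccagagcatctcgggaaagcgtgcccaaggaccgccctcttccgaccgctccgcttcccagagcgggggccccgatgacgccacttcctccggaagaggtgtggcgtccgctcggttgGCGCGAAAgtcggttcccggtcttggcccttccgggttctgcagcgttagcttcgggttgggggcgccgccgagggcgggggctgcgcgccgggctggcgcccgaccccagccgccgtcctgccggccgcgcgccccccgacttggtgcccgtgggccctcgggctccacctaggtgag
Brca1: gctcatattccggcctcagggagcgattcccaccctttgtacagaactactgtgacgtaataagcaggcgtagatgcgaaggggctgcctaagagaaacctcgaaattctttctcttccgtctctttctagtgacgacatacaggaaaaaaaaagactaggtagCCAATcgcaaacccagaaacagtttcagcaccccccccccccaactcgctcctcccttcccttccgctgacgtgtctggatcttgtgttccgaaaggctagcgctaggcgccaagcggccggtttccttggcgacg
Rad17: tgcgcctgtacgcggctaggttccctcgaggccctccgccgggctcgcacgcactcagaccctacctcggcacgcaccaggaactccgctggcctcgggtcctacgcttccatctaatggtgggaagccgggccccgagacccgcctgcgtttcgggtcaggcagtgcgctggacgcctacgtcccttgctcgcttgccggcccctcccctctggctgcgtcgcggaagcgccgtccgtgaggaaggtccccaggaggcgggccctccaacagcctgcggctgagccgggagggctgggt

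BRCA1, BRCA2 and their partners had lower signals with ADR in the first 4 lymphomas. On average 3 of the 3 tested were lower, with a median of -0.47. Beside this count and those of the groups below, 55.2% of all genes tested were lower on average. Brca2, which encodes a mediator of strand exchange, had signals of 7.80, 8.11, 8.20, 7.40 and 7.51 untreated and 7.15, 7.44, 7.70, 6.24 and 7.48 with ADR, in the order of lymphomas given above. Each ADR signal was below its untreated partner, by as little as 0.03 in lymphoma_4936, and the groups overlapped. Its change was -0.60 ± 0.40 (95% interval -0.99 to -0.22, adjusted p = 0.565, limma). Brca1, a ubiquitin ligase that directs breaks towards recombination, had signals of 8.20, 8.47, 8.39, 8.22 and 6.03 untreated and 6.35, 7.76, 7.56, 7.56 and 7.74 with ADR. Its untreated signal in lymphoma_4936 was over 2 log2 units below the other untreated arrays, while its ADR signal there lay among those of lymphoma_7890, lymphoma_9250 and lymphoma_1032. The change of Brca1 was -0.47 ± 1.31 over 5 lymphomas and -1.01 ± 0.56 (SD, n = 4) without lymphoma_4936, and its mean was -0.12 without lymphoma_5783 and 0.05 without lymphoma_5783 and lymphoma_1032. Bard1, the partner of BRCA1 in the ligase, had low signals of 5.28, 4.75, 4.97, 4.30 and 3.70 untreated and 3.77, 4.31, 4.32, 3.36 and 3.69 with ADR and was above the filter on 3 arrays. Bard1 was lower in all 5, with a change of -0.71 ± 0.56, which was -0.01 in lymphoma_4936. Palb2, the bridge between BRCA1 and BRCA2, had a change of -0.30 ± 0.81, with values of -0.93, -0.39, -0.34, -0.90 and 1.06.

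Rad51b, Rad51c, Rad51d and Xrcc3 encode proteins that assist strand exchange, and Rad54l and Rad54b encode DNA translocases that act in it. Of these, 6 of 6 tested genes were lower on average. Their median was -0.38, and -0.74 without lymphoma_4936. Rad54b had the largest mean change of the 38 genes. Its signals were 6.07, 6.0, 6.33, 5.77 and 3.37 untreated and 3.50, 4.65, 5.02, 3.33 and 4.77 with ADR, a change of -1.25 ± 1.60 (adjusted p = 0.577, limma) and of -1.92 ± 0.68 without lymphoma_4936. In lymphoma_4936 the untreated signal and in lymphoma_5783 and lymphoma_1032 the ADR signals were below the filter, at 3.37, 3.50 and 3.33. Rad51c, whose product works in complexes with the other proteins of the group, had signals of 6.88, 6.10, 6.58, 7.09 and 5.33 untreated and 5.95, 6.33, 5.77, 5.53 and 5.20 with ADR. It was lower in lymphoma_5783, lymphoma_9250, lymphoma_1032 and lymphoma_4936 and higher in lymphoma_7890, and is, with Brca2 and Mdc1, among the 7 genes lower in lymphoma_4936. The change of Rad51c was -0.64 ± 0.71 (adjusted p = 0.569, limma), and its mean was -0.41 without lymphoma_1032. The changes of Rad51b were -1.26, -0.85, -0.74, -1.13 and 1.44 and those of Rad54l -0.98, -0.59, -0.62, -0.68 and 1.65, both with the largest value, of opposite sign, in lymphoma_4936. Rad51d and Xrcc3 had mean changes of -0.11 ± 0.38 and -0.05 ± 0.35 and signs that differed among the first 4 lymphomas. A second probe set of Xrcc3, with a mean signal of 4.5 near the filter, had changes of -0.87, -0.95, -0.31, -0.80 and 0.32. Its mean change was -0.52 ± 0.53.

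The genes of the Fanconi core complex, the ubiquitin ligase of the pathway, and of its anchor Fancm come before those of the ID complex, which the ligase modifies. Of 8 core and anchor genes 6 were lower on average, with a median of -0.13 and a range from -0.43 to 0.14. Fancb had signals of 5.01, 6.16, 6.51, 4.76 and 4.85 untreated and 4.79, 5.74, 5.47, 3.57 and 5.56 with ADR, lower in all lymphomas but lymphoma_4936, with a change of -0.43 ± 0.76. The mean was -0.24 without lymphoma_1032, -0.28 without lymphoma_9250 and -0.72 without lymphoma_4936. A second probe set of Fancb was lower in lymphoma_4936 too, by 0.19. Fance, which links the core to the ID complex, had signals of 6.27, 6.61, 6.43, 6.07 and 5.64 untreated and 6.25, 6.67, 6.52, 6.04 and 6.24 with ADR. Its changes lay between -0.03 and 0.09 in the first 4 lymphomas and at 0.59 in lymphoma_4936, where the untreated signal was the lowest, and the mean of 0.14 ± 0.26 over the 5 was 0.02 without lymphoma_4936. A second probe set of Fance had a mean change of -0.19 on average, so the sign of its mean differed between its probe sets, and the mean of all its probe sets was -0.02. Fancc had a change of -0.33 ± 0.58, Fancm of -0.29 ± 0.51, Fancg of -0.19 ± 0.38, Fancl of -0.07 ± 0.32, Fancf of -0.01 ± 0.21 and Fanca of 0.07 ± 0.40.

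All 3 genes of the group of FANCD2, FANCI and the helicase BRIP1 were lower on average, with a median of -0.58, and of -0.88 without lymphoma_4936. Fanci had signals of 6.77, 7.0, 6.99, 6.48 and 6.10 untreated and 5.79, 6.0, 6.40, 5.85 and 6.44 with ADR, a change of -0.58 ± 0.54 (95% interval -1.05 to -0.10, adjusted p = 0.565, limma). In the first 4 lymphomas every ADR signal of Fanci was below every untreated one. Fancd2, the partner of FANCI, had signals of 6.90, 7.16, 7.14, 6.85 and 5.71 untreated and 5.71, 6.35, 6.69, 5.39 and 6.67 with ADR, with a change of -0.59 ± 0.94, or -0.97 ± 0.44 without lymphoma_4936 and a mean of -0.37 without lymphoma_1032. The 4 other untreated arrays of Fancd2 lay within 6.85 to 7.16, and that of lymphoma_4936 was at 5.71. Brip1, the helicase bound by BRCA1, had changes of -1.48, -0.68, -0.48, -0.90 and 0.94.

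Of the genes that process joint molecules, Blm encodes the Bloom helicase that dissolves them, and Mus81 and Eme1 the 2 subunits of a nuclease that cuts them. Eme1 had signals of 6.88, 7.54, 7.56, 7.22 and 6.31 untreated and 6.0, 6.76, 6.78, 5.64 and 6.97 with ADR, a change of -0.67 ± 0.81 (adjusted p = 0.577, limma) and of -1.01 ± 0.39 without lymphoma_4936. It was lower in each of the first 4 lymphomas, most in lymphoma_1032. Mus81, the catalytic subunit, had changes of 0.71, -0.09, -0.26, -0.55 and -0.04, a mean of -0.04 ± 0.47 with 0.71 in lymphoma_5783, the highest value of the 38 genes there. Blm had changes of -1.05, -0.45, -0.40, -0.73 and 1.0.

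All 5 tested genes of break sensing and single-strand binding were lower on average, with a median of -0.13 for the first group and -0.18 for the second. Of the MRE11 complex, which holds and resects break ends, Nbn had signals of 6.96, 7.75, 7.39, 6.79 and 6.38 untreated and 6.92, 7.11, 6.41, 6.52 and 6.98 with ADR, a change of -0.27 ± 0.60. The mean was -0.09 without lymphoma_9250, -0.17 without lymphoma_7890 and -0.48 without lymphoma_4936. The change was lowest in lymphoma_9250, with lymphoma_5783 near 0 and lymphoma_4936 higher with ADR. Mre11a and Rad50 had a mean change of -0.13 ± 0.40 and -0.12 ± 0.39. Rpa3, the small subunit of the single-strand binding protein RPA, had signals of 9.63, 9.49, 9.48, 9.46 and 8.25 untreated and 8.62, 8.90, 9.46, 8.95 and 9.20 with ADR, a change of -0.24 ± 0.75, which was -0.04 without lymphoma_5783, -0.15 without lymphoma_7890, -0.53 without lymphoma_4936 and 0.11 without lymphoma_5783 and lymphoma_1032. Its untreated signals lay within 9.46 to 9.63 apart from 8.25 in lymphoma_4936. Rpa1, the large subunit, had a change of -0.13 ± 0.47, and of -0.34 ± 0.11 without lymphoma_4936, with changes of -0.32, -0.49, -0.31, -0.22 and 0.69. Its second probe set had changes of -0.39, -0.39, -0.32, -0.29 and 0.76, with the same sign as the first in each lymphoma.

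Of the 4 checkpoint kinases 3 were lower on average, with a median of -0.05. Atm and Atr are the apical kinases, which respond to breaks and to single strands; Atm was lower in 2 of 5 lymphomas and Atr in 4. Atm had signals of 7.45, 8.16, 8.21, 7.33 and 7.34 untreated and 7.56, 7.87, 8.35, 7.02 and 7.69 with ADR, a change of 0.0 ± 0.29, just below 0 before rounding (95% interval -0.32 to 0.32, limma), whose sign turned with another quantile normalization (0.02), with centred arrays (0.08), without lymphoma_7890 (0.07) and without lymphoma_1032 (0.08). Atr had signals of 8.13, 8.20, 8.09, 7.54 and 7.46 untreated and 8.04, 7.94, 8.37, 7.18 and 7.42 with ADR, a change of -0.10 ± 0.25, with means from -0.19 without lymphoma_9250 to -0.03 without lymphoma_1032. On the ADR arrays both were highest in lymphoma_9250 and lowest in lymphoma_1032, and their groups overlapped. Chek1, the effector kinase of ATR, had signals of 7.26, 7.78, 7.93, 6.42 and 7.07 untreated and 6.29, 6.91, 7.38, 6.03 and 7.49 with ADR, a change of -0.47 ± 0.55 (adjusted p = 0.577, limma). It was lower in the first 4 lymphomas, by 0.39 to 0.96, and higher by 0.42 in lymphoma_4936. Chek2, the effector kinase of ATM, had signals of 7.13, 7.58, 7.79, 7.49 and 5.80 untreated and 6.96, 7.25, 7.59, 6.95 and 7.03 with ADR. Its mean change was 0.0 ± 0.70, and -0.31 ± 0.17 without lymphoma_4936. The untreated signal of lymphoma_4936 was the lowest of the 10, and the other untreated signals lay at 7.13 and above.

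Of the 4 clamp genes 2 were lower on average, with a median of 0.01, and of the 2 mediators 1 was lower. Topbp1, the activator of ATR, had signals of 9.98, 10.0, 10.16, 9.58 and 9.71 untreated and 9.52, 9.65, 9.88, 9.04 and 9.86 with ADR, a change of -0.29 ± 0.27 (adjusted p = 0.577, limma) with lower signals in the first 4 lymphomas. Rad1, a subunit of the checkpoint clamp, had signals of 7.28, 7.76, 8.05, 7.01 and 6.80 untreated and 7.22, 7.65, 7.98, 7.36 and 7.33 with ADR, a change of 0.13 ± 0.29. Its mean was 0.03 without lymphoma_4936, and -0.08 once lymphoma_1032 and lymphoma_4936 were left out. It was higher in lymphoma_1032 and lymphoma_4936 and within 0.11 of its untreated signal in the others. Hus1, another clamp subunit, and Rad17, its loader, had a mean change of 0.03 ± 0.19 and -0.01 ± 0.13, and Rad17 had the smallest SD of the 38 genes. Mdc1, the adaptor that binds phosphorylated histone at breaks, had signals of 7.28, 7.15, 7.11, 6.91 and 6.74 untreated and 6.59, 7.11, 6.92, 6.14 and 6.65 with ADR. It was lower in all 5 lymphomas, by 0.69 in lymphoma_5783 and 0.76 in lymphoma_1032 and by at most 0.20 in the others, with a change of -0.36 ± 0.34 (adjusted p = 0.577, limma). Trp53bp1, the mediator that favours end joining over resection, had signals of 8.02, 8.42, 8.21, 8.31 and 7.66 untreated and 8.44, 8.0, 8.37, 8.39 and 8.12 with ADR. It was higher in lymphoma_5783, lymphoma_9250, lymphoma_1032 and lymphoma_4936 and lower in lymphoma_7890, with a change of 0.14 ± 0.35 (adjusted p = 0.774, limma). The mean was 0.07 without lymphoma_5783 or lymphoma_4936 and 0.28 without lymphoma_7890. Its 3 probe sets past the filter had mean changes of 0.14, 0.05 and 0.09, and the mean of all its probe sets was -0.02.

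**Figure D4:**
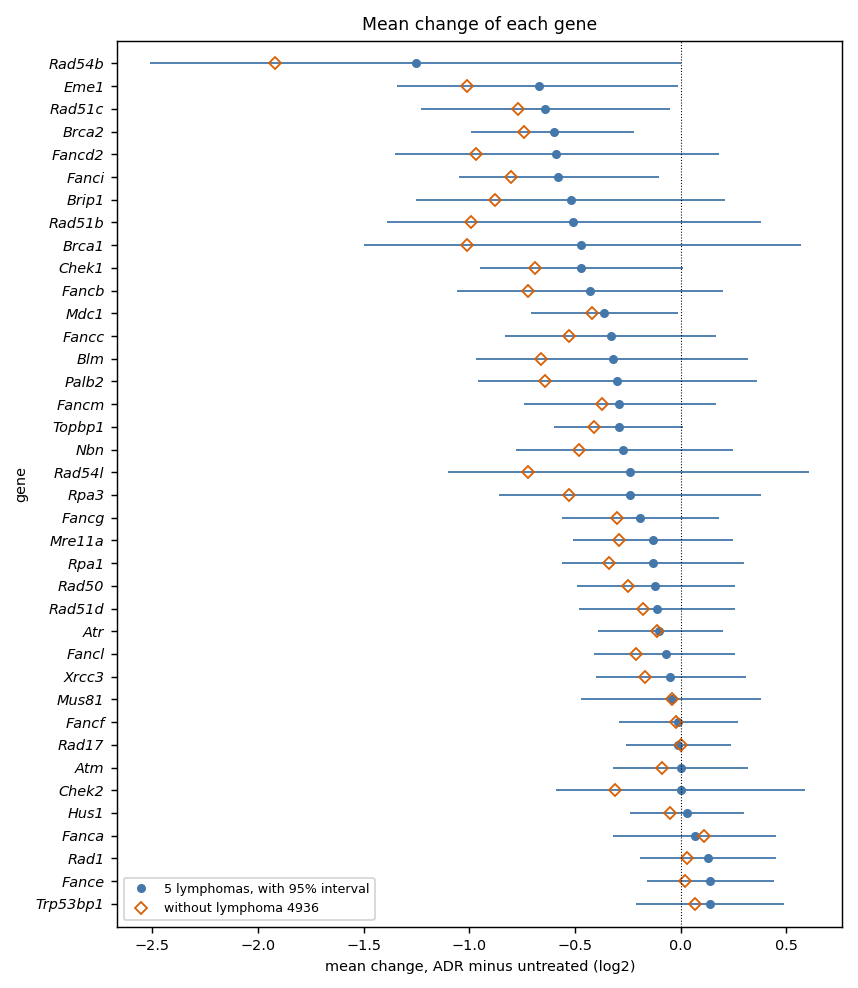
Mean change of each of the 38 tested genes (log2 difference of ADR minus untreated), ordered by size. Filled points with bars are means over 5 lymphomas with the 95% interval of the limma fit, and open diamonds are means without lymphoma_4936. The diamonds lie to the left of most points, furthest for Rad54b (-1.92 against -1.25), Brca1, Rad54l and Rad51b, and near the points for Mus81, Atr and Mdc1.

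The genes also varied between lymphomas within a group. Over the 5 untreated arrays the SD ranged from 0.18 for Rad17 to 1.21 for Rad54b. The SD over untreated arrays was above that over ADR arrays for 23 of 38 genes (60.5%), where 48.7% of all genes had the larger SD untreated. Chek2 had an SD of 0.79 untreated and of 0.27 with ADR, and Rad54l, a translocase, had SDs of 1.06 and 0.46. Rad54l had untreated signals of 7.70, 8.46, 8.39, 8.03 and 5.87 and ADR signals of 6.72, 7.87, 7.77, 7.35 and 7.52. The untreated array of lymphoma_4936 was the low one in both genes. Fanca, by contrast, had SDs of 0.32 and 0.53, with its highest signal, 8.14, on the ADR array of lymphoma_9250.

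Genes with several probe sets were compared within the gene. In all, 84 probe sets named these genes and 64 passed the filter, and 20 genes had more than 1 that did. For 14 of the 20 all probe sets had a mean change of 1 sign. The signs differed in Atm, Fanca, Fance, Fancm, Hus1 and Mre11a, none of which had an unadjusted p under 0.05. The gap between a gene's probe sets had a median of 0.10 and was largest in Fancm, where it was 0.51. For Brca1 the 3 probe sets past the filter had changes of -0.47, -0.59 and -0.79 on average and by 1.71, 1.87 and 1.14 in lymphoma_4936. The 3 of Rad54l had changes of 1.65, 1.93 and 2.33 in lymphoma_4936. This did not hold for every gene: in lymphoma_4936 all probe sets were higher in 11 of the 20 genes and the signs differed in the other 9, which were Atm, Atr, Fanca, Fancb, Fancc, Fancg, Hus1, Mus81 and Rad51c.

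Other genes of the same pathways, from a list of 50 of which 45 were tested, gave a similar description. Of the 45, 37 (82.2%) were lower on average, where 55.2% of all genes were, with a median of -0.22, and 0 passed the test. At an unadjusted p under 0.05 in limma, 6 were lower and 0 were higher, where 4.52% and 3.97% of all genes were. Wrn, the Werner helicase, had changes of -1.32, -0.64, -0.57, -1.42 and -0.21, a mean of -0.83 ± 0.52, and Rmi2, a partner of the Bloom helicase, by -0.88 ± 0.64. Repair pathways other than recombination are given for comparison, and some lists share genes. Exo1 was listed in mismatch repair and Ercc1 and Ercc4 in nucleotide excision repair, and all of them in the list of 50 too. Ddb2 and Xpc were listed both in nucleotide excision repair and among the p53 targets. Of 7 tested genes of non-homologous end joining 4 were lower, with a median of -0.12. The medians by lymphoma were 0.01, 0.07, -0.02, -0.37 and -0.10, and in lymphoma_1032 6 of the 7 were lower. Polm, an end-joining polymerase, had a mean change of -0.22 ± 0.20 and Xrcc6, the Ku70 subunit, by -0.20 ± 0.34. All 6 tested mismatch repair genes were lower, with a median of -0.28, Pms2 at -0.33 ± 0.31 and Pms1 at -0.39 ± 0.43 among them. Nucleotide excision repair genes had a median of 0.04 with 7 of 15 lower, and base excision repair genes one of -0.08 with 9 of 15 lower. The medians by lymphoma were -0.13, -0.46, -0.30, -0.75 and 0.19 for mismatch repair and -0.16, -0.12, -0.15, -0.29 and 0.23 for base excision repair. They were 0.14, -0.08, -0.02, -0.04 and 0.26 for nucleotide excision repair. For the 45 other genes of the same pathways they were -0.37, -0.35, -0.22, -0.46 and 0.37. These lists were not tested against each other.

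Genes of cell division were also lower in the first 4 lymphomas and higher in lymphoma_4936. All 38 tested S phase genes were lower on average, with a median of -0.30, and all 33 tested G2 and mitosis genes, with a median of -0.56. Of all genes tested 55.2% were lower on average. The medians of the S phase list were -0.72, -0.64, -0.50 and -0.49 in the first 4 lymphomas and those of the G2 and mitosis list -1.30, -0.68, -0.73 and -0.82. In lymphoma_4936 the medians were 0.69 and 0.81, beside the 0.46 of the recombination and checkpoint genes. Slbp, the histone mRNA binding protein, had a mean change of -0.42 ± 0.31, Cdc7, the kinase that fires origins, by -0.55 ± 0.61, Kif11, a spindle motor, by -0.93 ± 0.90, and Cenpa, the centromeric histone, by -0.80 ± 0.38. Cenpa and Slbp were lower in all 5 lymphomas, as were Brca2 and Mdc1 and 4.82% of all genes tested. The p53 targets had a median of 0.35 with 18 of 23 higher, Phlda3, a repressor of Akt, at 0.88 ± 0.41 and Cdkn1a at 0.60 ± 0.43. None of these genes passed the adjusted test.

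**Figure D5:**
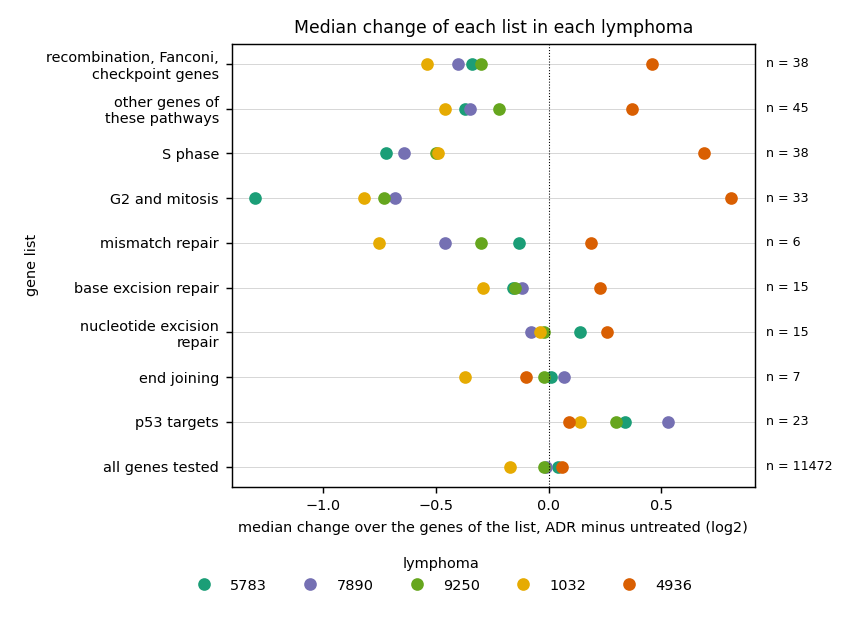
Median change (log2 difference of ADR minus untreated) over the tested genes of each list, with 1 point per lymphoma and the number of genes at the right. The tumour lymphoma_4936 lies right of 0 for the recombination, S phase and G2 lists, at 0.46, 0.69 and 0.81. The other lymphomas lie left of 0 in these lists. The end-joining list and all genes tested stay closer to 0 than these lists, and the p53 targets lie right of 0 in all 5. The other genes of these pathways, mismatch repair and base excision repair also lie right of 0 in lymphoma_4936 and left of 0 in the other lymphomas.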

How the data were processed

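RNA of 10 samples was measured on Affymetrix mouse arrays. The deposited table holds log2 signals; the submitters' processing notes name RMA and Partek as the authors' tools, without versions or settings, and the scale was taken as log2 from the range of the values. The number of arrays limits the precision.

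Of 45101 probe sets 34945 had exactly 1 gene symbol, 932 had several and the rest had none or were controls; 34741 were found in the RefSeq gene table. The tests used lmFit and eBayes of limma 3.58.1 (R 4.3.3), two-sided, with the lymphoma as a block and Benjamini-Hochberg adjustment over all genes tested at a threshold of 0.05. The series describes matched pairs; within pairs, departures from the group means had correlations of 0.515 to 0.791. The members and lists were chosen with earlier results of these data known.

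Genes given with every array's value were those of 1 sign in all 5 lymphomas and those with the 5 lowest and 3 highest mean changes. The gene with the smallest p of each role and Brca1, Brca2, Atm, Atr, Chek1 and Chek2 were also given. From other lists at most the 2 genes with the smallest p were given. Rad54l, Cd79b, Ms4a1 and Pax5 were chosen after their values were seen. Alternatives were no block, no filter, a stricter filter (the 70th percentile), averaged probe sets, another quantile normalization, centred arrays, array weights, a robust prior with a trend, and each lymphoma left out; leaving out 2 lymphomas together was added after seeing the data.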

Additional observations from a re-analysis of the deposited data

Results flagged for a closer look

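The untreated levels, ADR levels and changes of the 20 named genes made 60 sets of 5 values. Of these sets 7 had 1 value far from the other 4, with a gap to the nearest value over 0.71 of the range. Independent sets would give about 1 in 20, or 3, by chance. These sets share the same arrays, each change is made from the levels, and some genes were named for their changes. The count of 7 is therefore a description and cannot be set against the 3. Of these 7, 6 belonged to lymphoma_4936. The untreated signal of lymphoma_4936 was 6.03 for Brca1, where the others lay between 8.20 and 8.47. It was 3.37 for Rad54b against 5.77 to 6.33, 5.71 for Fancd2 against 6.85 to 7.16, and 8.25 for Rpa3 against 9.46 to 9.63. The change in lymphoma_4936 was 1.22 for Chek2, where the others lay between -0.54 and -0.16, and 0.59 for Fance against -0.03 to 0.09. The ADR signal of Brca1 in lymphoma_5783 was 6.35, and the others lay between 7.56 and 7.76.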

How the results depend on the processing

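Under 15 alternatives, 13 of them planned, 0 genes passed the adjusted p. Leaving out 1 lymphoma gave 0 each time, between 28 and 34 of the 38 genes lower on average and a median from -0.39 to -0.14. The share of all genes that were lower then ran from 47.2% without lymphoma_1032 to 58.6% without lymphoma_5783. Without the replicate block, that is, unpaired, 0 genes passed, 1 of the 38 genes had an unadjusted p under 0.05 instead of 6, and 262 of all genes instead of 973. The count of 6 was 4 after another quantile normalization (9.07% of all genes) and 4 with centred arrays (10.3%), near those shares, 10 of 37 when a gene's probe sets were averaged (8.79%), and 16 without lymphoma_1032 and lymphoma_4936 (11.8%), a choice made after seeing the data. No gene passed the adjusted p with or without the block, while the unadjusted counts were lower without it. The 19 named genes tested gave 282 values, of which 268 kept their sign, 14 turned it and 0 passed the threshold. Signs turned in Fance (-0.02), Atm (0.03) and Trp53bp1 (-0.02) with the mean of all probe sets, Atm after another quantile normalization (0.02) and with centred arrays (0.08), Chek2 with array weights (-0.08), and, with 1 lymphoma left out, Atm (from -0.09 to 0.08) and Chek2 (from -0.31 without lymphoma_4936 to 0.13). Leaving out lymphoma_5783 and lymphoma_1032 turned Brca1 (0.05), Atm (0.07) and Rpa3 (0.11), and leaving out lymphoma_1032 and lymphoma_4936 turned Chek2 (-0.23) and Rad1 (-0.08). With the stricter filter 29 of the 38 genes remained, 23 of them lower (79.3%), with a median of -0.13. Of all genes past that filter 49.6% were lower, with a median of 0.0. Signals near the filter, as in Rad54b, Rad51b and Bard1, limit what the arrays can separate.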

Other observations

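The genes below were chosen as the 2 with the smallest p in nucleotide and in base excision repair. Values unlike the medians of their lists are tied to that choice and are given as a description. Ercc5, the nuclease that cuts on the 3' side of a bulky lesion, was higher with ADR in all 5 lymphomas, by 1.06, 0.75, 0.70, 0.02 and 0.24, a mean of 0.55 ± 0.42. Ddb2, a damage sensor, was lower in 4 lymphomas, most in lymphoma_1032 at -2.49, with a mean of -0.76 ± 1.11. In base excision repair, Neil3, a glycosylase of single-stranded and replicating DNA, had changes of -1.99, -0.91, -0.56, -2.28 and 0.03, a mean of -1.14 ± 0.97. Apex1, the abasic site endonuclease, had changes of 0.43, 0.01, 0.29, 0.58 and 0.38, a mean of 0.34 ± 0.21. The adjusted p in limma was between 0.565 and 0.595 for all 4.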
